A study of Mus musculus with 24 samples.

Results

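The response of macrophages to lipopolysaccharide (LPS) was compared between bone marrow-derived macrophages (BMDMs) and the RAW264.7 line. Only libraries taken as wild type were used, whose titles name no knockout. For each gene the LPS change in BMDMs (3 libraries with LPS against 3 with PBS) was set against the LPS change in RAW264.7 (3 against 3), in 12 of the 24 libraries of the series. Both tables list the same 56691 genes, which were joined on gene identifier, and 14819 had enough counts to be tested. Of these, 3605 genes responded in 1 cell type alone or in opposite directions in the pair.

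LPS, from the outer membrane of Gram-negative bacteria, is bound by TLR4 with its partner MD-2 and the co-receptor CD14. The adaptors MyD88 and TIRAP carry the signal to NF-kappaB and the MAP kinases, which switch on cytokine and chemokine genes within hours. From endosomes, TRIF and TRAM activate IRF3, and the interferon-beta made in turn acts back on the cells through its receptor to induce interferon-stimulated genes.

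The BMDMs were grown for 6 days in IMDM with L929 cell supernatant, a source of CSF1, from the marrow of 8-week-old male wild-type mice, the controls of an Olfml3 knockout strain on C57BL/6. RAW264.7 is a macrophage-like tumour line that was derived from a male BALB/c mouse after infection with Abelson leukaemia virus, and it was kept in DMEM. Cells were exposed to LPS for 4 h at a dose of 100 ng/mL, and controls received PBS. Groups follow the sample titles, since the genotype field disagrees with the title for part of the samples, the wild-type LPS libraries included. The titles name the Olfml3 knockout or leave it out, and libraries without it were taken as wild type. In BMDMs the Olfml3 counts follow the titles, at 71 to 88 in wild-type PBS and 33 to 35 in wild-type LPS libraries, against 0 to 4 in those titled knockout. In RAW264.7 they run against the titles, at 10 to 26 in the libraries taken as wild type and 66 to 1524 in those titled knockout. The genotype of the RAW264.7 libraries used here is thus in doubt by the targeted gene. Every RAW264.7 value below belongs to libraries taken as wild type from their titles, unless given for libraries labelled knockout. How many mice stand behind the 3 BMDM libraries of a group is not given in the sources used here, and libraries of a cell line share 1 population, so p-values measure the spread between these libraries. Cell type, mouse strain, culture medium, sequencing depth and deposited table all differ together between the groups of BMDMs and of RAW264.7 and cannot be told apart. Given the counts above, Olfml3 genotype may differ along with them. So may single-cell cloning, by which the study's knockout RAW264.7 cells were made. An LPS change within a table is free of the differences that a table's 6 libraries share, whereas levels from different tables are only given side by side.

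Totals ran from 21881039 to 22467927 counts in BMDMs and from 12801180 to 16142555 in RAW264.7. Levels are given as normalised FPKM, that is, FPKM computed from the counts on library sizes scaled by TMM over the 12 libraries. All 10 macrophage markers averaged at least 1 normalised FPKM in BMDMs, with sums of 15600 to 16000 with PBS and 21300 to 21600 with LPS. In RAW264.7 the sums were 2710 to 2800 and 2940 to 3020, and Mertk, an efferocytosis receptor, had 0 counts in its 6 libraries. Lymphocyte markers summed to at most 0.296 in any group, and neutrophil markers to 5.51 to 6.85 in resting and 9.39 to 14.4 in LPS-treated BMDMs, with Ly6g at 0 counts. Dendritic cell markers summed to 1.78 to 2.41 in resting and 4.71 to 4.87 in LPS-treated BMDMs, against 0.84 to 0.987 and 0.69 to 0.808 in RAW264.7. The part of these cells in the results was not tested. Replicate 1 of the LPS-treated BMDMs stood apart from replicates 2 and 3 (chi-square per degree of freedom 10.4 and 8.5, against 2.02 to 4.76 for the other pairs of replicates). Counts on ribosomal RNA genes made up 1.02% to 1.71% of LPS-treated and 0.477% to 0.745% of resting BMDM libraries, against at most 0.0822% in RAW264.7, and the part of this in the results was not tested. Without replicate 1 of the LPS-treated BMDMs, 3250 of the 3605 genes kept their class.

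LPS moved more genes in BMDMs than in RAW264.7. Among the 14819 tested genes, 3528 (23.8%) rose and 4295 (29.0%) fell in BMDMs, and 2093 (14.1%) rose and 2739 (18.5%) fell in RAW264.7, by edgeR's quasi-likelihood test at a fold of 1.5 or more and a p, adjusted by Benjamini and Hochberg, below 0.05. With every library thinned to the smallest total, 7279 genes changed in BMDMs and 4616 in RAW264.7. The difference of the LPS changes, BMDM minus RAW264.7, was tested in the same model as a contrast of its own. It was called for 5727 genes, positive for 2669 (18.0%) and negative for 3058 (20.6%). Of 1318 genes that rose in both cell types, 636 differed in the size of the rise, and of 1712 that fell in both, 716 differed.

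A gene was taken to respond in 1 cell type alone when it was called there, changed by less than 1.5-fold in the other and had a called difference. By this rule 1186 genes (8.0%) rose and 1396 (9.42%) fell in BMDMs alone, and 295 (1.99%) rose and 354 (2.39%) fell in RAW264.7 alone. Another 190 genes (1.28%) rose in BMDMs and fell in RAW264.7, and 184 (1.24%) did the reverse. A change under 1.5-fold is not a proof of no change: the 95% interval of the change in the other cell type lay wholly within 1.5-fold for 887 of the 1186 (74.8%), 911 of the 1396 (65.3%), 183 of the 295 (62.0%) and 226 of the 354 (63.8%).

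These counts rest on the scaling. TMM scaling places the median LPS change near 0 in both cell types (log2 change of -0.06 and -0.03 over the tested genes). With library totals alone the medians were -0.83 in BMDMs and -0.20 in RAW264.7, and the median difference was -0.61 in place of -0.01. The share of positive calls among all called differences was then 16.2% in place of 46.6%, and higher calls made up 18.3% of BMDM calls in place of 45.1% and 31.6% of RAW264.7 calls in place of 43.3%. Of the 3605 genes, 1924 kept their class under library totals. Genes lower in BMDMs alone mostly kept it (1198 of 1396), as did those lower in BMDMs and higher in RAW264.7 (130 of 184), but 385 of the 1186 higher in BMDMs alone did so, 78 of the 190 higher in BMDMs and lower in RAW264.7, 68 of the 295 higher in RAW264.7 alone and 65 of the 354 lower there alone. Which scaling is nearer to the RNA per cell was not tested.

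**Figure D1:**
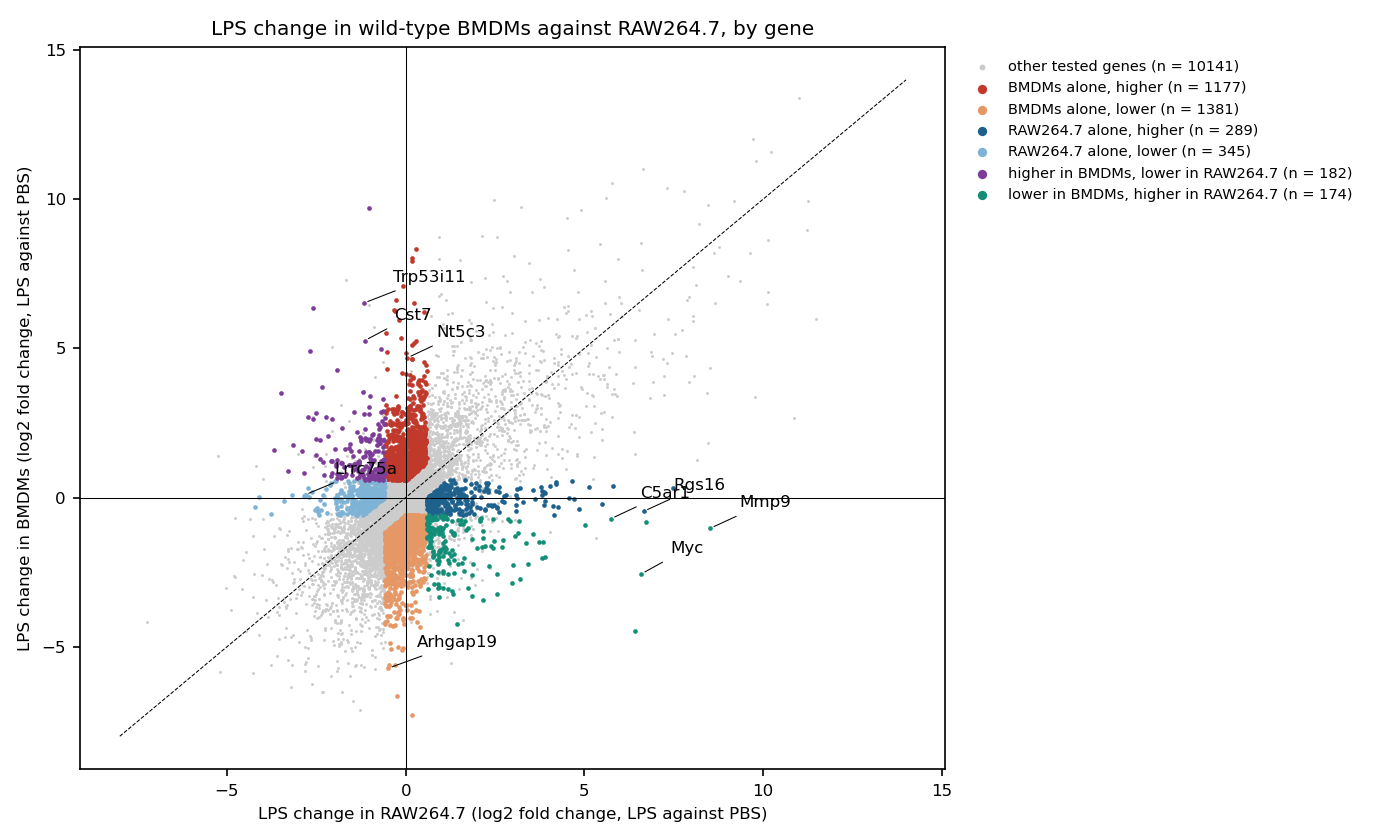
LPS change in BMDMs (vertical axis) against LPS change in RAW264.7 (horizontal axis), both as log2 fold changes of LPS against PBS, with 1 point per tested gene and colours for the 6 classes. The 13689 genes with counts in every group are drawn, the dashed line marks equal changes, and Myc and Mmp9 lie at the far lower right while Trp53i11 and Cst7 lie at the upper left.

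Genes that moved in opposite directions were led by Mmp9 and Myc, which fell in BMDMs and rose steeply in RAW264.7. Myc, the transcription factor that drives cell growth, had normalised FPKM of 16.9, 16.7 and 17.4 with PBS and 3.06, 2.84 and 2.72 with LPS in BMDMs. In RAW264.7 it had 0.344, 0.494 and 0.367 with PBS and 40, 40.9 and 37.2 with LPS. It was thus the more abundant at rest in BMDMs and the more abundant after LPS in RAW264.7. No PBS library overlapped an LPS library in either cell type, which the rule for naming these genes required. The log2 LPS change was -2.56 (SE 0.08) in BMDMs and 6.59 (SE 0.10) in RAW264.7, a difference of -9.15 (SE 0.13, edgeR adjusted p = 1.38e-31).

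Mmp9 encodes a secreted gelatinase. Its normalised FPKM in BMDMs was 1.53, 1.95 and 1.53 with PBS and 0.796, 0.949 and 0.702 with LPS, and in RAW264.7 it was 0.0155, 0.0131 and 0.0313 with PBS and 8.31, 7.21 and 8.23 with LPS, from 4 counts in the 3 resting libraries together. By the same rule, levels with PBS and LPS did not overlap in either cell type. The changes were -1.03 (SE 0.17) and 8.52 (SE 0.24) on the log2 scale and their difference was -9.55 (SE 0.33, edgeR adjusted p = 2.69e-22).

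C5ar1, the receptor for the complement fragment C5a, was among the receptor genes that RAW264.7 cells held low until LPS. It had 191, 192 and 194 with PBS and 125, 112 and 116 with LPS in BMDMs and 1.07, 1.12 and 0.689 with PBS and 52.3, 53.1 and 50.7 with LPS in RAW264.7, so that a log2 change of -0.71 stood against one of 5.74 (difference -6.45, SE 0.10, edgeR adjusted p = 2.98e-31). Siglec1, a sialic acid-binding receptor of macrophages, followed the same course, from a mean of 38.9 to 20.5 in BMDMs and from 0.0486 to 1.59 in RAW264.7 (difference -5.93, SE 0.22, edgeR adjusted p = 1.44e-21). The growth arrest gene Gadd45a went from 23.6 to 3.27 and from 0.165 to 1.35 (difference -5.83, SE 0.32, edgeR adjusted p = 8.29e-17), and Phlda1 from 3.09 to 1.74 and from 0.319 to 33.6 (difference -7.56, SE 0.20, edgeR adjusted p = 4.92e-25). In all 4 genes the resting level was higher in BMDMs than in RAW264.7, and for Phlda1 the order turned around with LPS.

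The reverse course, up in BMDMs and down in RAW264.7, was led by Trp53i11, a gene named as induced by p53. It had 0.0596, 0.0366 and 0 with PBS and 3.43, 3.23 and 2.69 with LPS in BMDMs, where the resting libraries held 8 counts together, and 4.79, 4.82 and 4.8 with PBS and 2.04, 2.56 and 1.79 with LPS in RAW264.7 (difference 7.69, SE 0.32, edgeR adjusted p = 4.25e-20). Cst7 encodes cystatin F, an inhibitor of lysosomal cysteine proteases. Its level was 2.81, 3.29 and 2.58 with PBS and 118, 106 and 110 with LPS in BMDMs and 14.6, 15.9 and 13.4 with PBS and 7.57, 6.82 and 5.59 with LPS in RAW264.7. The log2 changes were 5.26 (SE 0.10) and -1.15 (SE 0.11), which differ by 6.41 (SE 0.15, edgeR adjusted p = 8.10e-27).

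Fzd7, a receptor for Wnt ligands, had the highest resting level of these genes in BMDMs, at 13.2, 13.8 and 14.5 with PBS and 49.4, 52.4 and 54.3 with LPS, and fell in RAW264.7, with 5.27, 4.82 and 4.77 with PBS and 0.994, 0.922 and 0.925 with LPS (difference 4.3, SE 0.11, edgeR adjusted p = 3.95e-26). Rubcnl, which acts in autophagosome maturation, rose from a mean of 1.92 to 12 in BMDMs and fell from 2.75 to 0.455 in RAW264.7, a log2 difference of 5.24 (SE 0.16, edgeR adjusted p = 5.40e-24). The zinc finger gene Zbtb8a and the phosphatase gene Dusp14 moved likewise, with differences of 5.43 (SE 0.21, edgeR adjusted p = 7.42e-21) and 7.58 (SE 0.50, edgeR adjusted p = 6.78e-15). Dusp14 rests on few reads, with 9 counts in resting BMDMs and 28 in LPS-treated RAW264.7. All 12 of these genes stayed in their class under library totals.

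**Figure D2:**
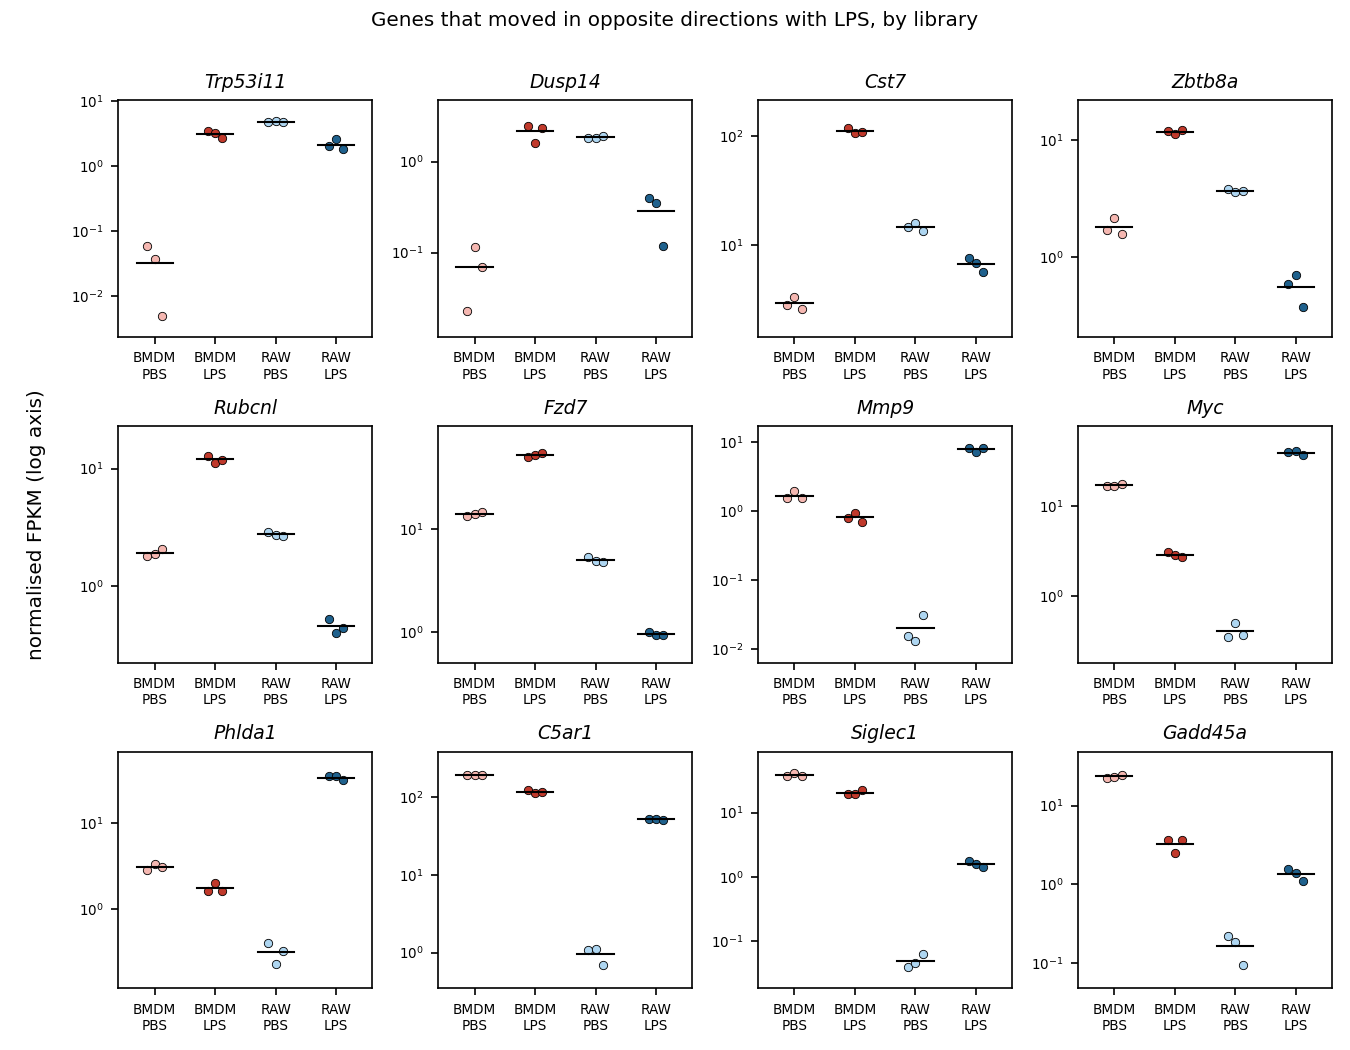
Normalised FPKM (log axis) of the 12 named genes that moved in opposite directions, by group, with 1 point per library and a bar at the mean of 3 libraries. Points fall from PBS to LPS in one cell type and rise in the other in every panel, and a library at 0 is drawn at 0.005.

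Among the 6 named genes higher in BMDMs alone, chosen at 1 deposited FPKM or more in both cell types, Car2, carbonic anhydrase 2, had the largest difference. It had 0.0727, 0.0372 and 0.0184 with PBS and 3.86, 4.35 and 4.26 with LPS in BMDMs, from 7 counts at rest to 401 with LPS, beside a far higher 237, 230 and 220 with PBS and 266, 267 and 271 with LPS in RAW264.7. The difference was 6.28 (SE 0.23, edgeR adjusted p = 1.12e-21), and the 95% interval of its RAW264.7 change ran from 0.14 to 0.30. Nt5c3, a pyrimidine nucleotidase, had 7.09, 7.25 and 6.41 with PBS and 188, 174 and 171 with LPS in BMDMs and 9.12, 8.99 and 8.02 with PBS and 9.19, 8.8 and 8.99 with LPS in RAW264.7. The resting levels were alike side by side, LPS raised the BMDM level by 4.68 (SE 0.06) on the log2 scale, and the RAW264.7 change was 0.04 (SE 0.06) (difference 4.64, SE 0.08, edgeR adjusted p = 6.19e-30).

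Foxp4, a forkhead transcription factor, rose in BMDMs from 1.85 to 33.7 while its mean in RAW264.7 went from 6.66 to 6.24 (difference 4.28, SE 0.10, edgeR adjusted p = 3.70e-27). Tnfsf9, the ligand of the costimulatory receptor 4-1BB, rose from 2.51 to 96.4 in BMDMs and was already at 43 in resting RAW264.7, where it had 52.6 with LPS (difference 4.97, SE 0.12, edgeR adjusted p = 8.96e-27). Il12rb1, a subunit of the receptors for IL-12 and IL-23, and Pmepa1, an inhibitor of TGF-beta signalling, were low in both cell types at rest and rose in BMDMs by 4.88 and 4.64, with differences of 5.4 (SE 0.30, edgeR adjusted p = 1.22e-16) and 4.47 (SE 0.29, edgeR adjusted p = 5.46e-15). Il12rb1 changed by -0.53 (SE 0.20) in RAW264.7, close to the 1.5-fold limit.

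Genes that fell in BMDMs alone included a receptor and a channel. Arhgap19, an inactivator of RhoA, had 60.1, 58 and 58.3 with PBS and 1.06, 1.15 and 1.12 with LPS in BMDMs, the steepest fall among the 5 genes of this class given here at -5.72 (SE 0.08), and 1.12, 1.22 and 0.965 with PBS and 0.681, 0.686 and 0.991 with LPS in RAW264.7 (difference -5.23, SE 0.18, edgeR adjusted p = 5.01e-22). With LPS the BMDM level stood beside that of resting RAW264.7. Kcnj2, an inward rectifier potassium channel, had 14.7, 14.7 and 15.7 with PBS and 0.34, 0.491 and 0.553 with LPS in BMDMs and 2.52, 2.42 and 2.72 with PBS and 2.39, 2.11 and 2.06 with LPS in RAW264.7 (difference -4.8, SE 0.16, edgeR adjusted p = 5.75e-23).

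Lpar6, a receptor for lysophosphatidic acid, fell in BMDMs from a mean of 16.7 to 1.02 against 2.1 to 2.29 in RAW264.7, a difference of -4.15 (SE 0.13, edgeR adjusted p = 1.26e-23). Il16, a cytokine that attracts CD4+ cells, fell from 1.95 to 0.102 against 1.36 to 1.32 (difference -4.2, SE 0.25, edgeR adjusted p = 5.54e-16). Bbs12, needed to assemble the ciliary BBSome, fell from 2.13 to 0.041 against 4.98 to 3.57, with 4 counts left in the LPS-treated BMDMs (difference -5.12, SE 0.41, edgeR adjusted p = 1.13e-12). Of the 11 genes of BMDMs alone given here, Il12rb1, Arhgap19 and Bbs12 changed class under library totals, since their RAW264.7 change then passed 1.5-fold.

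Among the 6 named genes higher in RAW264.7 alone, Rgs16 had the largest difference. This regulator of G-protein signalling had 1.18, 1.07 and 0.615 with PBS and 100, 98 and 94.7 with LPS in RAW264.7 and 2.86, 3.12 and 3.57 with PBS and 2.12, 2.42 and 2.38 with LPS in BMDMs. RAW264.7 thus held less than BMDMs at rest and much more with LPS, and the difference was -7.13 (SE 0.17, edgeR adjusted p = 1.97e-26). Egr1, an immediate-early transcription factor, had 1.14, 1.18 and 0.827 with PBS and 18.9, 18.7 and 18.3 with LPS in RAW264.7 and 15, 17.3 and 15.3 with PBS and 11.3, 10.2 and 10.2 with LPS in BMDMs (difference -4.72, SE 0.11, edgeR adjusted p = 2.12e-26). Its BMDM change of -0.58 (SE 0.07) lies just short of 1.5-fold, and Egr1 left the class in several of the other settings.

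Dpep2, a membrane dipeptidase, reached with LPS in RAW264.7 the level that BMDMs held throughout, with 0.557, 0.937 and 0.795 with PBS and 10.6, 12 and 10.2 with LPS in RAW264.7 and 10.3, 10 and 9.38 with PBS and 10.8, 10.1 and 10.3 with LPS in BMDMs (difference -3.75, SE 0.13, edgeR adjusted p = 9.19e-22). Osm, the IL-6 family cytokine oncostatin M, rose in RAW264.7 from a mean of 0.871 to 12.7 and had 2.5 to 2.81 in BMDMs (difference -3.7, SE 0.20, edgeR adjusted p = 3.06e-17). Ccr1, a receptor for CCL3 and CCL5, and Itgax, which encodes the integrin CD11c, rose from 5 and 21 counts to means of 0.948 and 0.927 in RAW264.7. Their BMDM means were far higher under either condition, at 35.7 to 27.3 for Ccr1 and 10.3 to 10 for Itgax, with differences of -5.23 (SE 0.33, edgeR adjusted p = 2.36e-15) and -3.64 (SE 0.27, edgeR adjusted p = 1.97e-13). Under library totals all 6 left the class, because the BMDM change was then lower by the shift in scale, and of the whole class of 295 genes 152 then counted as lower in BMDMs and higher in RAW264.7.

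The genes lower in RAW264.7 alone had smaller differences. Lrrc75a, a leucine-rich repeat gene, had 20.4, 21.5 and 20.8 with PBS and 3.08, 2.51 and 3.33 with LPS in RAW264.7 and 4.15, 4.03 and 4.53 with PBS and 4.65, 3.8 and 5.08 with LPS in BMDMs (difference 2.91, SE 0.16, edgeR adjusted p = 5.52e-17). Wdhd1, a DNA replication factor, had 7.29, 7.31 and 7.52 with PBS and 1.76, 1.31 and 1.63 with LPS in RAW264.7 and 5.75, 5.48 and 5.93 with PBS and 6.73, 7.41 and 6.88 with LPS in BMDMs. Its groups did not overlap in either cell type, which the rule for naming it required in RAW264.7 only. The difference was 2.53 (SE 0.10, edgeR adjusted p = 2.68e-20). Plxnd1, a semaphorin receptor, fell from a mean of 15.9 to 4.08 in RAW264.7 against 40.1 to 59 in BMDMs (difference 2.52, SE 0.08, edgeR adjusted p = 4.87e-23).

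Mrps6, a protein of the mitochondrial ribosome, fell from 85 to 27.6 against 5.01 to 7.4 (difference 2.19, SE 0.12, edgeR adjusted p = 1.78e-16). The chromatin gene Pwwp3a and the GATA cofactor gene Zfpm1 had log2 changes of -2.31 and -2.4 in RAW264.7 and of 0.08 and -0.09 in BMDMs, with differences of 2.4 (SE 0.09, edgeR adjusted p = 6.41e-21) and 2.31 (SE 0.20, edgeR adjusted p = 3.91e-12). Plxnd1 and Mrps6 both changed by 0.56 in BMDMs, close to the limit of 0.585, and left the class with median-ratio size factors and in DESeq2. Under library totals Lrrc75a, Pwwp3a and Zfpm1 left it.

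**Figure D3:**
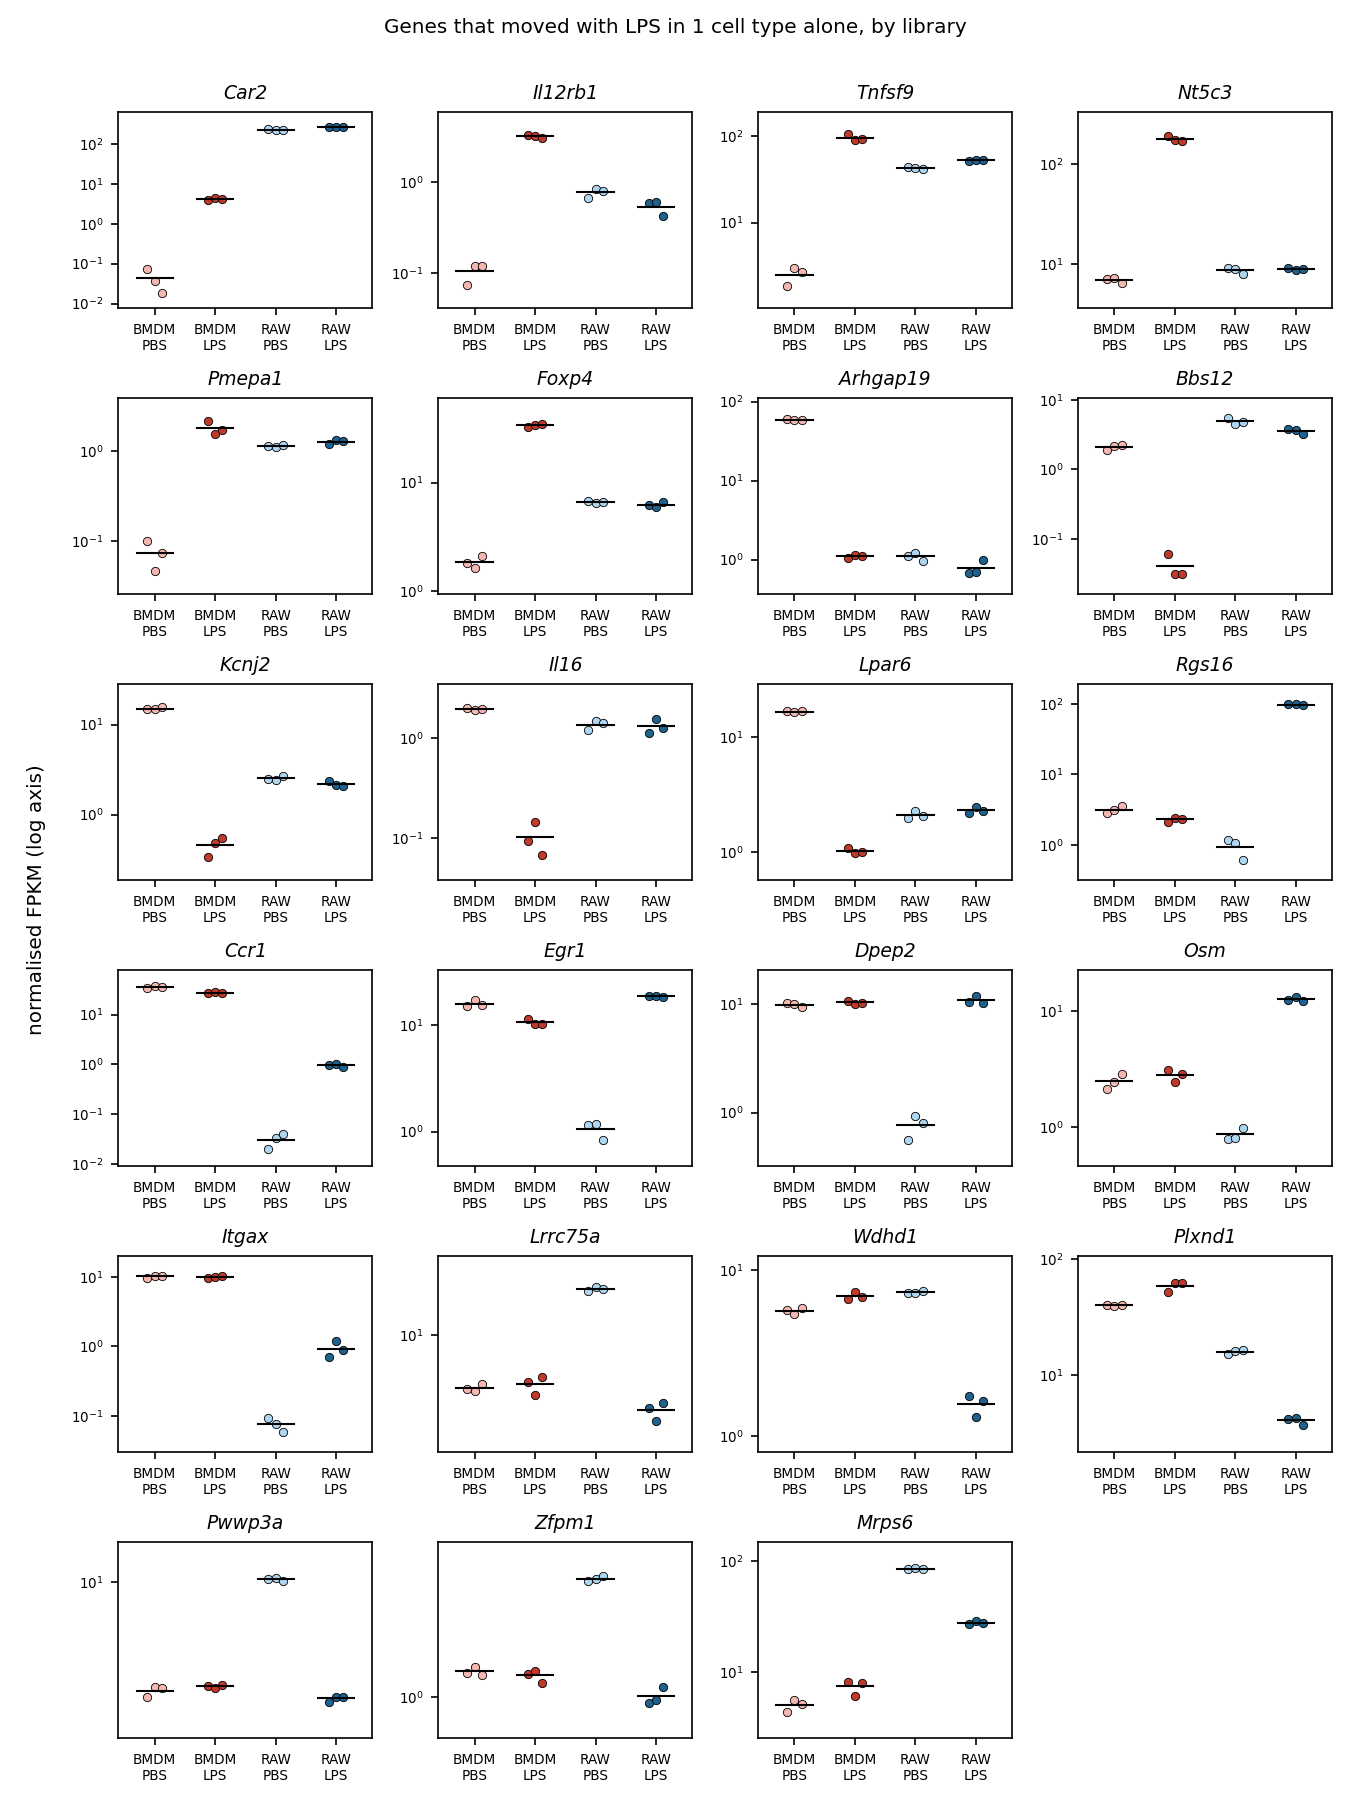
Normalised FPKM (log axis, different range in each panel) of 23 genes that moved with LPS in 1 cell type alone, by group, with 1 point per library and a bar at the mean of 3 libraries. The first 11 panels show genes of BMDMs and the last 12 genes of RAW264.7, and changes in the other cell type are under 1.5-fold, such as those of Egr1 (log2 change of -0.58 in BMDMs) and of Plxnd1 and Mrps6 (both 0.56).

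Some of the responding genes were ones that one of them hardly expressed. Of the genes that rose in BMDMs, 399 (11.3%) were under 0.1 deposited FPKM with PBS and LPS in RAW264.7, and of those that fell, 457 (10.6%). In the other direction 139 of the genes that rose in RAW264.7 (6.64%) and 187 of those that fell (6.83%) were under 0.1 FPKM in BMDMs. The same share over all tested genes is not given here, so these shares do not set responding genes apart from the rest. Most of the genes named here had a group at 0 counts, for which no fold change is given.

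Cxcl9, a ligand of the chemokine receptor CXCR3 of T cells, had 0.19, 0.0746 and 0.104 with PBS and 441, 402 and 412 with LPS in BMDMs, and had 0 counts at rest and 4 with LPS in the RAW264.7 libraries. The serine protease inhibitor genes Serpina3g and Serpina3i, from a family of close copies among which reads can be shared, reached means of 121 and 5.01 in LPS-treated BMDMs from 7 and 0 counts at rest. Il2ra, the alpha chain of the IL-2 receptor, reached 7.02 and the metalloreductase gene Steap4 2.91. RAW264.7 libraries with LPS held 5, 0, 1 and 2 counts of these 4 genes in all. On such few counts Cxcl9 and Serpina3g were also called higher in RAW264.7 (edgeR adjusted p = 0.0477 and 0.0213).

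Zfp395 fell in BMDMs from 10.2 to 0.0635, the transcription factor gene Sox4 from 3.56 to 0.094, Ypel2 from 3.67 to 0.0724 and Nat8l, the synthase of N-acetylaspartate, from 2.19 to 0.0601. Of these, Zfp395 and Sox4 had no count in RAW264.7, and Ypel2 and Nat8l had 8 and 1 in the resting libraries. The T cell receptor segment Trav13n-4 had 72 counts in resting and 0 in LPS-treated BMDMs, beside Cd3d, Cd3e and Cd3g at 0 counts in both groups.

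Lif, a cytokine of the IL-6 family, had 0.0506, 0.0213 and 0.0382 with PBS and 72.3, 70.9 and 66.8 with LPS in RAW264.7, whereas in BMDMs 2 counts were found at rest and 9 with LPS. Both rises passed the test and their difference was -8.2 (SE 1.81, edgeR adjusted p = 0.000213). Ifi44l, an interferon-stimulated gene, had 1.52, 1.58 and 1.33 with PBS and 66.9, 72.4 and 73.9 with LPS in RAW264.7 and had 0 counts in the 6 BMDM libraries. The chemokine Ccl20 and the cytokine Il36a were found at means of 2.01 and 2.82, and Otor at 1.03 from 50 counts, all from 0 counts at rest. Ccl20 was also called higher in BMDMs, on 4 counts in replicate 3 with LPS (edgeR adjusted p = 0.0336).

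Kbtbd11 fell in RAW264.7 from 40 to 2.1, Fam13c from 7.19 to 0.549, Ranbp3l from 6.86 to 0.255, the sulfotransferase gene Chst1 from 7.44 to 0.401 and Cnnm1 from 0.831 to 0.0557. Fam13c and Cnnm1 had no count in BMDMs. For Kbtbd11 a change of -2.55, from 22 counts to 2, was also called in BMDMs, and the difference of 1.7 (SE 1.34) was not.

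The LPS response was then read by pathway, from 15 lists of genes, against medians over all tested genes of -0.06 in BMDMs, -0.03 in RAW264.7 and -0.01 for the difference. The shares of all tested genes that rose and fell, 23.8% and 29.0% in BMDMs and 14.1% and 18.5% in RAW264.7, are the background of the counts, as are 18.0% and 20.6% for positive and negative differences. Under library totals the median difference fell below 0 for the lists of nitric oxide, prostaglandin and redox genes (-0.16), glycolysis (-0.17) and the citrate cycle (-0.34) and was 0.00 for costimulation genes, while with the other edgeR scalings and in DESeq2 no list's median difference changed sign. The median BMDM change also fell below 0 under library totals for the LPS receptor list (-0.18), the immediate-early factors (-0.66), glycolysis (-0.31), cholesterol (-0.14) and the citrate cycle (-0.74).

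Among 19 genes of the LPS receptor and its adaptors, 10 rose and 2 fell in BMDMs and 7 rose and 2 fell in RAW264.7. The difference was called positive for 7 and negative for 4, with a median of -0.06, and under library totals for 4 and 10. Ly96, which encodes MD-2, rose in BMDMs alone from a mean of 12.9 to 38.1 against 5.53 to 5.98 in RAW264.7 (difference 1.44, SE 0.16, edgeR adjusted p = 1.01e-09). Irf5, a transcription factor of inflammatory genes, and Ikbkb, the kinase that marks I-kappaB for removal, did the same, with differences of 1.52 (SE 0.06, edgeR adjusted p = 1.69e-20) and 1.26 (SE 0.06, edgeR adjusted p = 6.39e-18).

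Myd88 rose in both and further in BMDMs, from 30.4 to 197 against 33.8 to 72.3 (difference 1.6, SE 0.06, edgeR adjusted p = 2.76e-21). Genes of the TRIF branch went either way. Ticam1, which encodes TRIF, rose in both and further in RAW264.7 (0.59 against 1.43), and Ikbke, the kinase that acts beside TBK1 on IRF3, rose from 11.7 to 56.8 against 0.653 to 29.2 (difference -3.2, SE 0.08, edgeR adjusted p = 9.13e-26). Tbk1, the other kinase of IRF3, rose in both and further in BMDMs (1.54 against 0.82, difference 0.71). Tirap rose in RAW264.7 alone (-0.08 against 0.74), Ticam2, which encodes TRAM, fell there alone (-0.15 against -0.92), and Irak4 fell in BMDMs alone (-0.88 against -0.2). Tlr4 itself fell in both, with log2 changes of -0.99 and -0.78, and the difference of -0.2 was not called.

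The NF-kappaB family and its feedback inhibitors rose widely in both cell types, 23 of 26 in BMDMs and 24 in RAW264.7, and 15 had a positive and 6 a negative difference (median 0.72), or 9 and 10 under library totals (median 0.12). Socs3, an inhibitor of cytokine receptor signalling, had 0.593, 0.716 and 0.665 with PBS and 451, 429 and 442 with LPS in BMDMs and 5.52, 4.96 and 5.05 with PBS and 115, 119 and 121 with LPS in RAW264.7, so that the rise was 9.38 (SE 0.07) against 4.51 (SE 0.05) (difference 4.87, SE 0.10, edgeR adjusted p = 9.96e-28). Socs1, Tnip3 and Dusp2 also rose further in BMDMs, with differences of 3.77, 3.56 and 3.22. Rela, the p65 subunit, rose in BMDMs alone, from 21.8 to 71.9 against 13.6 to 12.8 (difference 1.81, SE 0.08, edgeR adjusted p = 4.42e-20), while Nfkb1, the p105 precursor of p50, rose in both, from 9.9 to 75.2 against 8.76 to 73.1 (difference -0.13, SE 0.06, not called).

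The 6 negative differences in this list were those of 3 dual-specificity phosphatase genes, Cish, Nfkbid (-0.95) and Irak3 (-0.76). Dusp6, a phosphatase of ERK, fell in BMDMs alone, with 32.7, 31.9 and 34 with PBS and 1.85, 2.14 and 1.97 with LPS there and 6.08, 6.53 and 5.87 with PBS and 6.22, 5.97 and 5.54 with LPS in RAW264.7 (difference -3.98, SE 0.12, edgeR adjusted p = 2.76e-24). Dusp4 moved in opposite directions, from 12.7 to 6.29 against 12.6 to 25.8 (difference -2.06, SE 0.10, edgeR adjusted p = 2.61e-18). Dusp5 rose in both, from 4.13 to 6.41 against 0.732 to 27.6 (difference -4.59, SE 0.18, edgeR adjusted p = 4.21e-21), and Cish, an inhibitor of STAT5 signalling, rose further in RAW264.7 from 1 count at rest (difference -3.23, SE 0.86, edgeR adjusted p = 0.0016), which lies in replicate 1, so that the fold rests on that library.

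Immediate-early transcription factors split between the cell types. In BMDMs 10 of 20 rose and 7 fell, in RAW264.7 14 rose and 3 fell, and the difference was called positive for 5 and negative for 9 (medians 0.11, 1.59 and -0.32). Besides Myc, the genes Egr2, Egr3 and Fosl1 fell in BMDMs and rose in RAW264.7. Egr2 had 8.27, 9.84 and 8.7 with PBS and 3.36, 2.88 and 3.08 with LPS in BMDMs and 0.259, 0.218 and 0.0651 with PBS and 1.72, 1.85 and 2.11 with LPS in RAW264.7, a difference of -4.88 (SE 0.25, edgeR adjusted p = 1.27e-17), and Egr3 and Fosl1 differed by -4.11 and -5.95. Fos, the AP-1 subunit, fell in BMDMs alone, from 29 to 11.2 against 7.24 to 9.99 (difference -1.83, SE 0.10, edgeR adjusted p = 9.52e-17). Klf4 did the reverse of Myc, with 1.76, 1.8 and 2.01 with PBS and 3.14, 3.48 and 3.16 with LPS in BMDMs and 5.86, 7.18 and 7.41 with PBS and 0.654, 0.982 and 1.21 with LPS in RAW264.7, and a difference of 3.64 (SE 0.20, edgeR adjusted p = 1.12e-16).

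Inflammatory cytokine genes rose in both cell types, 21 of 22 in BMDMs and 19 in RAW264.7, with 6 differences on either side. Tnf rose to similar levels side by side, from 15.6 to 1430 in BMDMs and from 34.7 to 1650 in RAW264.7, and its difference was 0.96 (SE 0.06, edgeR adjusted p = 3.80e-15). Il1a, Il1b, Csf1, Csf2 and Lif had larger rises in RAW264.7. Csf2, which encodes GM-CSF, stayed low in BMDMs with 0.371, 0.573 and 0.471 under LPS, against 46, 45.5 and 44.6 in RAW264.7, and the difference was -6.39 (SE 1.86, edgeR adjusted p = 0.00368). The resting libraries of each cell type held 2 counts of Csf2 together, so the size of its difference rests on few reads. Csf1, the growth factor on which BMDMs depend, went from 7.49 to 109 and from 0.0437 to 5.72 (difference -3.06, SE 0.30, edgeR adjusted p = 9.33e-11). Il12b, the shared subunit of IL-12 and IL-23, had 436, 465 and 465 in LPS-treated BMDMs and 0.131, 0.0861 and 0.146 in LPS-treated RAW264.7, with 0 counts in resting RAW264.7, and no fold change is given. Il15, Il18 and Il1rn rose further in BMDMs, by 1.06, 1.24 and 1.13. For 7 of the 22 a group was at 0 counts, and with those at a floor of 3 counts per group the median difference was 0.48 over the 20 genes with such a bound in place of 0.82.

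Chemokine genes rose as widely, 18 of 20 in BMDMs and 19 in RAW264.7, and 9 differences were negative against 4 positive. Cxcl2, which attracts neutrophils, had 0.617, 0.806 and 0.886 with PBS and 48.4, 52.4 and 45.9 with LPS in BMDMs and 0.612, 0.425 and 0.401 with PBS and 1400, 1350 and 1390 with LPS in RAW264.7, a difference of -5.51 (SE 0.23, edgeR adjusted p = 5.51e-20). Ccl2 and Ccl7, ligands of CCR2, rose from 112 to 1220 and 96.2 to 1620 in BMDMs and from 0.616 to 96 and 0.0229 to 8.15 in RAW264.7 (differences -3.78 and -4.0). For both the BMDM level stayed the higher side by side, and the fold of Ccl7 in RAW264.7 rests on 1 resting count, in replicate 1. Cxcl10 and Cxcl11, which attract T cells through CXCR3, rose further in BMDMs, with differences of 1.35 (SE 0.18, edgeR adjusted p = 6.20e-08) and 4.36 (SE 0.67, edgeR adjusted p = 9.66e-07). The median difference was -0.48 by the fitted values and 0.06 with the 5 genes that had a group at 0 counts set to the floor.

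Type I interferon-stimulated genes rose in both cell types, most often by a larger fold in RAW264.7. Of 34 genes, 33 rose in each cell type, 22 had a negative difference, that is a larger fold in RAW264.7, and 4 a positive one (median -1.19). All 22 had the higher resting level in BMDMs, and 21 of them also the higher level with LPS. Oasl2, of the oligoadenylate synthetase-like family, had 24.2, 29.8 and 23 with PBS and 261, 254 and 258 with LPS in BMDMs and 0.164, 0.138 and 0.104 with PBS and 15.2, 16.2 and 15.2 with LPS in RAW264.7 (difference -3.5, SE 0.18, edgeR adjusted p = 2.13e-17). Isg15, a ubiquitin-like protein, had 25.8, 28.4 and 23.5 with PBS and 1400, 1180 and 1230 with LPS in BMDMs and 1.88, 1.51 and 1.65 with PBS and 354, 357 and 355 with LPS in RAW264.7 (difference -2.11, SE 0.17, edgeR adjusted p = 1.20e-12). The larger fold of RAW264.7 thus went with a lower resting level, which enters the fold by construction. Ifit2 and Oasl1 were the main exceptions, with differences of 1.88 (SE 0.11, edgeR adjusted p = 3.04e-16) and 1.67 (SE 0.09, edgeR adjusted p = 1.54e-16). Among the 14 interferon-inducible GTPases, 14 rose in BMDMs and 12 in RAW264.7, with 4 negative differences (Gbp2, Gbp3, Gbp7 and Irgm2) and 1 positive (Gbp6). The call of Gbp6 rests on few reads and was lost without replicate 1 or replicate 3 of the resting RAW264.7 libraries (edgeR adjusted p = 0.0547 and 0.288). That of Ifit1, -1.0, was lost without replicate 1 of the resting RAW264.7 libraries (-0.56, edgeR adjusted p = 0.0822) and grew to -2.03 without replicate 2, and that of Rsad2 went from -1.61 to -2.46 without replicate 1. On log2(FPKM + 1) the differences of Ifit1, Ifit3b, Rsad2, Gbp2, Gbp3 and Gbp7 turned positive.

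The promoters of these genes were searched for the interferon-stimulated response element, as GAAA followed by GAAA after a gap of 2 bases, on either strand, in RefSeq promoter windows of mouse build GRCm38.p6 (250 bases before to 50 after a start site, the first window listed for a symbol). The element was found in 14 of 23 promoters of the interferon list (60.9%), 27 of 130 genes that rose in both cell types and further in RAW264.7 (20.8%), 26 of 354 that rose further in BMDMs (7.34%), 342 of 10243 tested genes (3.34%) and 943 of all 27025 promoters (3.49%). Stretches of 30 bases are shown for the 5 members of the list with the most negative differences whose match lies before the start site, read 5′ to 3′ along the gene, with bases of a match in capitals:
Ifit3b, chr19:34607759-34607788, plus strand: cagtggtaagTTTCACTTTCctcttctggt
Ifit3, chr19:34583363-34583392, plus strand: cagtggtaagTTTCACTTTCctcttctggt
Slfn5, chr11:82951937-82951966, plus strand: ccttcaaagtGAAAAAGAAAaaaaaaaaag
Isg15, chr4:156200877-156200906, minus strand: tatgccgtagGAAAAGGAAACCGAAACAGA
Rsad2, chr12:26456553-26456582, minus strand: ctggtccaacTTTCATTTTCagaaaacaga
The stretches of Ifit3 and Ifit3b have the same letters, as these are close copies whose counts may share reads. Both have the motif on the opposite strand, as does Rsad2, and Isg15 has 3 overlapping matches, the last of which runs on past the stretch shown. The differences of Ifit3b, Ifit3, Slfn5 and Rsad2 were -4.17, -2.78, -2.53 and -1.61. A match of letters does not show binding.

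The same windows were searched for an NF-kappaB site, as GGGA followed by TTCC after a gap of 2 bases, an AP-1 site, as TGANTCA, and an E-box, as CACGTG, on both strands. E-boxes were found in 10.4% of the promoters of tested genes and 7.24% of all promoters. By class the share was 16.9% of 124 for genes lower in BMDMs and higher in RAW264.7, 9.29% of 140 for the reverse, 11.6% of 838 and 9.45% of 1079 for genes higher and lower in BMDMs alone, and 14.9% of 222 and 10.6% of 284 for those higher and lower in RAW264.7 alone. AP-1 sites were found in 8 of the 23 promoters of the interferon list (34.8%), in 15.4% of the 130 promoters of genes that rose in both and further in RAW264.7 and in 6.78% of the 354 that rose further in BMDMs, against 5.26% of tested genes and 7.93% of all promoters. Without the 13 promoters of the interferon list among the 130, AP-1 sites were found in 14 of 117 and the interferon element in 18. NF-kappaB sites were found in 1.51% of tested genes, 1.43% of all promoters, at most 3.08% of the 6 classes and of the genes that rose in both, and 2 of the 23 promoters of the interferon list (8.70%).

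**Figure D4:**
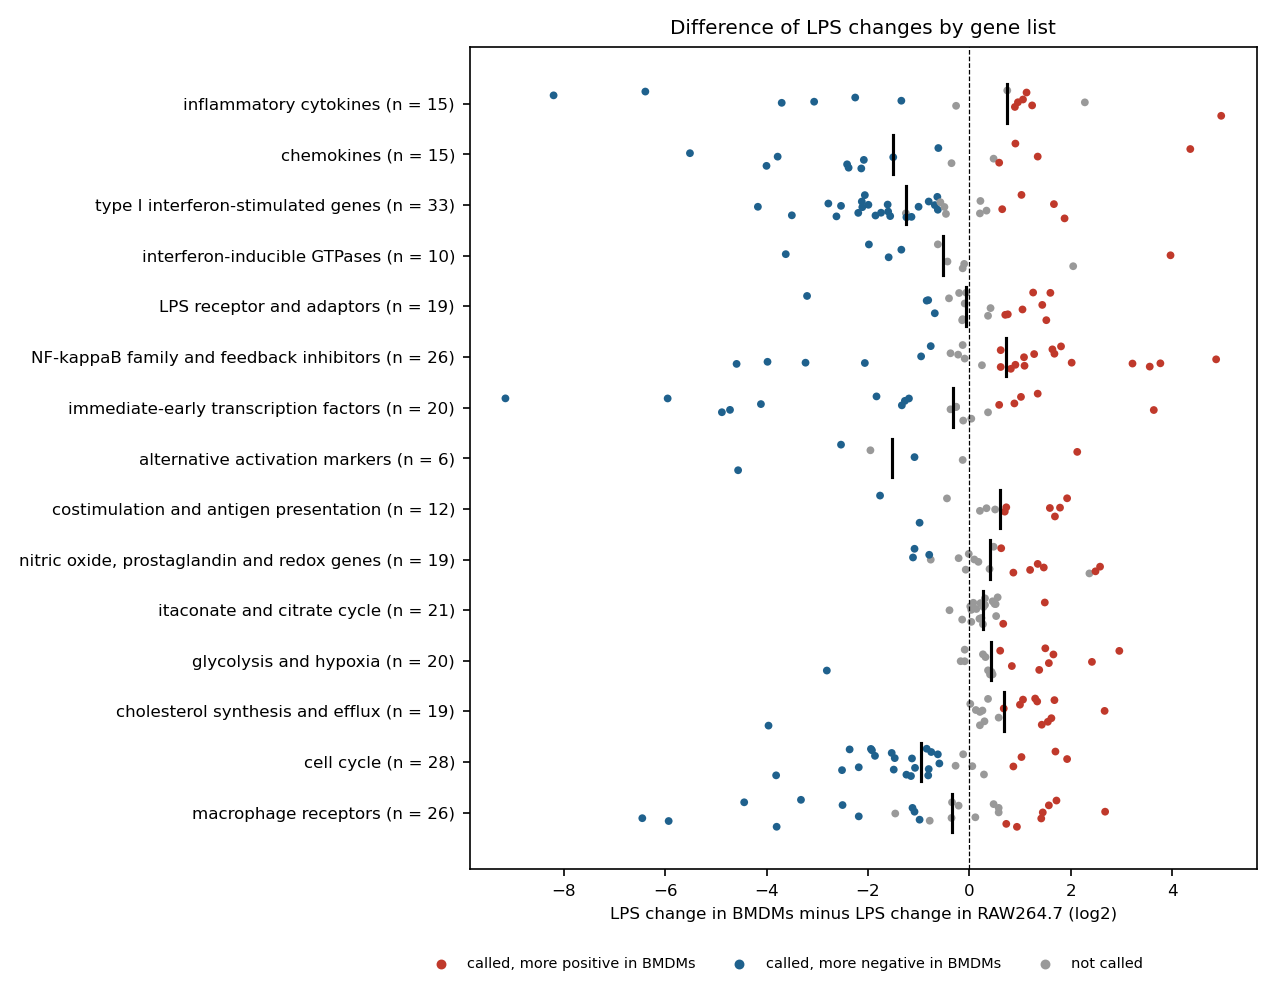
Difference of the LPS changes (log2, BMDM minus RAW264.7) for the tested members of 15 gene lists, with 1 point per gene and a bar at the median of the genes drawn. Genes with a group at 0 counts are left out, red and blue points passed the test, and the interferon-stimulated and cell cycle lists lie mostly left of 0 while the cholesterol and glycolysis lists lie mostly right of it, the median of the latter being -0.17 under library totals.

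Costimulation and antigen presentation genes rose in both, 14 of 18 in BMDMs and 12 in RAW264.7, with 7 positive and 2 negative differences. Cd40, the receptor through which T cells activate macrophages, had 2.12, 1.73 and 2.03 with PBS and 742, 703 and 711 with LPS in BMDMs and 0.436, 0.679 and 0.536 with PBS and 54.2, 54.1 and 53.3 with LPS in RAW264.7 (difference 1.93, SE 0.16, edgeR adjusted p = 4.16e-12). Cd83, Cd274, which encodes PD-L1, and the peptide transporter gene Tap2 also rose further in BMDMs (1.59, 1.69 and 1.79), and Cd80 and Icosl further in RAW264.7 (-1.76 and -0.98). Genes of MHC class II were nearly absent from RAW264.7, where H2-Aa, H2-Ab1 and H2-Eb1 averaged at most 0.0189 normalised FPKM in either group, against 12.4 to 22.2 in BMDMs.

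Among 20 genes of nitric oxide, prostaglandin and redox metabolism, 12 rose and 5 fell in BMDMs, 10 rose and 2 fell in RAW264.7, and 7 differences were positive and 3 negative, or 5 and 7 under library totals. Nos2, the inducible nitric oxide synthase, had 326, 337 and 352 in LPS-treated BMDMs and 18.7, 19.5 and 19.7 in LPS-treated RAW264.7, from near 0 in both, and the difference of 2.37 (SE 1.28) was not called. Sod2, the mitochondrial superoxide dismutase, and Ptgs2, the inducible cyclooxygenase, rose further in BMDMs, with differences of 2.58 (SE 0.06, edgeR adjusted p = 1.29e-27) and 2.49 (SE 0.14, edgeR adjusted p = 1.77e-16). Ncf1, an NADPH oxidase subunit, rose in BMDMs alone, from 88.9 to 232 against 111 to 104 (difference 1.47, SE 0.05, edgeR adjusted p = 7.47e-22), and Hmox1, haem oxygenase 1, fell in BMDMs alone, from 227 to 77.8 against 31.8 to 23.1 (difference -1.08, SE 0.08, edgeR adjusted p = 6.75e-14).

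Of 20 glycolysis and hypoxia genes, 9 rose and 2 fell in BMDMs and 2 rose and 2 fell in RAW264.7, and 8 differences were positive and 1 negative (median 0.43), or 6 and 4 under library totals. The share called in either direction, 55.0% in BMDMs and 20.0% in RAW264.7, compares with 52.8% and 32.6% of all tested genes. Pfkfb3, which makes the activator of phosphofructokinase, rose in BMDMs alone, with 6.63, 7.32 and 6.44 with PBS and 52.4, 56.1 and 60.1 with LPS there and 6.16, 6.02 and 6.08 with PBS and 6.32, 6.41 and 6.72 with LPS in RAW264.7 (difference 2.96, SE 0.08, edgeR adjusted p = 3.62e-25). Hif1a, Pfkp, Hk3, Pgk1 and the lactate exporter gene Slc16a3 also rose in BMDMs alone, with differences of 1.38, 1.5, 1.57, 0.61 and 0.84, although Hif1a changed by 0.56 in RAW264.7, close to the limit, and Pgk1 fell short of it (0.58) without replicate 1 of the resting RAW264.7 libraries. Under library totals the differences of Pgk1 and Slc16a3 were not called. Hk1, hexokinase 1, moved in opposite directions, from 12.1 to 32.7 in BMDMs and from 18.9 to 9.48 in RAW264.7 (difference 2.42, SE 0.07, edgeR adjusted p = 3.89e-25). Vegfa fell in BMDMs alone, from 22.1 to 3.55 against 6.78 to 7.65 (difference -2.81, SE 0.10, edgeR adjusted p = 4.51e-22).

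The cholesterol list had 10 of 19 genes higher and 4 lower in BMDMs, 2 higher and 5 lower in RAW264.7, and 10 positive against 1 negative difference (median 0.68), or 7 and 2 under library totals (median 0.07). Hmgcs1, an early enzyme of the synthesis pathway, rose in BMDMs alone from 32.9 to 92.1, against 37.3 to 34 in RAW264.7 (difference 1.62, SE 0.06, edgeR adjusted p = 8.12e-22). Cyp51, Idi1, Fdps, Fdft1 and Insig1 were in the same class, with differences from 1.06 to 1.55. The exporters of cholesterol went apart. Abcg1 rose in BMDMs and fell in RAW264.7, from 49.2 to 106 and from 10.1 to 3.42 (difference 2.67, SE 0.07, edgeR adjusted p = 1.39e-25), and Abca1 did the reverse, from 103 to 60 and from 0.0964 to 0.897 (difference -3.96, SE 0.22, edgeR adjusted p = 6.78e-17).

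Among 21 genes of itaconate synthesis and the citrate cycle, Acod1 rose in both cell types and further in BMDMs. This gene encodes the enzyme that makes itaconate, and it had 1.17, 1.37 and 1.24 with PBS and 3100, 3160 and 3260 with LPS in BMDMs and 1.43, 2.13 and 2.53 with PBS and 1820, 1830 and 1810 with LPS in RAW264.7 (difference 1.49, SE 0.14, edgeR adjusted p = 2.43e-11). Aco1 and Idh1 fell in both, with log2 changes of -0.62 and -1.44 in BMDMs and -0.64 and -1.05 in RAW264.7, and the remaining 18 genes were called in neither cell type, although the difference of Cs, citrate synthase, passed the test (0.67, SE 0.05, edgeR adjusted p = 1.11e-12), though not under library totals. These calls rest on the scaling. Under library totals 15 of the 21 genes fell in BMDMs and 5 in RAW264.7. With median-ratio size factors and in DESeq2, 2 rose and 1 fell in BMDMs, and 1 rose and 1 fell in RAW264.7.

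Cell cycle genes fell in both cell types and further in BMDMs. Of 28 genes, 24 fell in BMDMs and 19 in RAW264.7, with 20 negative and 4 positive differences and medians of -1.97, -0.86 and -0.95. Under library totals 27 fell in BMDMs and 23 in RAW264.7, with 22 negative and 2 positive differences. Cdc20, an activator of the anaphase-promoting complex, had 5.77, 5.9 and 6.29 with PBS and 0.278, 0.0409 and 0.605 with LPS in BMDMs and 99.1, 100 and 98.9 with PBS and 71.1, 77.7 and 69.1 with LPS in RAW264.7 (difference -3.81, SE 0.24, edgeR adjusted p = 3.34e-15). Plk1, Aurka, Bub1, Ccnb1, Cdk1 and Top2a, which act in the G2 phase and mitosis, also fell in BMDMs alone, with differences from -2.36 to -1.47. Pcna and Mcm6, which act in DNA replication, fell in RAW264.7 alone, from 149 to 69.6 and 56.8 to 20.5 against 236 to 203 and 45.2 to 33.3 in BMDMs, with differences of 0.87 (SE 0.06, edgeR adjusted p = 2.48e-15) and 1.03 (SE 0.06, edgeR adjusted p = 5.79e-16). Cdkn1a, the inhibitor p21, rose in both and further in BMDMs, from 52 to 787 against 19.5 to 91.4 (difference 1.7, SE 0.06, edgeR adjusted p = 1.61e-22). The resting level was higher in BMDMs for 2 of the 28 genes.

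Macrophage receptor genes moved in several ways. Of 30 genes, 13 rose and 8 fell in BMDMs, 15 rose and 6 fell in RAW264.7, and 13 responded in 1 cell type alone or in opposite directions. Of all 14819 tested genes, 3605 did so. Under library totals 9 of the 30 rose and 16 fell in BMDMs, and 14 rose and 6 fell in RAW264.7. C3ar1, the receptor for C3a, had 380, 380 and 380 with PBS and 315, 323 and 325 with LPS in BMDMs and 2.38, 2.57 and 2.29 with PBS and 20, 20.9 and 20.5 with LPS in RAW264.7, where alone it rose (difference -3.32, SE 0.06, edgeR adjusted p = 7.76e-29). Ccr2, a receptor for chemokines, fell in BMDMs and rose in RAW264.7, from 3.23 to 0.364 and from 0.22 to 0.545 (difference -4.44, SE 0.28, edgeR adjusted p = 2.93e-15), at levels under 1 normalised FPKM in RAW264.7. Cd36, a scavenger receptor, Clec7a, which encodes dectin-1, and Tlr9 rose in RAW264.7 alone (differences of -1.08, -2.18 and -1.12). Trem2 fell in RAW264.7 alone, from 49.2 to 23 against 157 to 141 (difference 0.94, SE 0.06, edgeR adjusted p = 4.38e-16). P2ry12 fell there too but was at 0 counts with LPS.

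Fc gamma receptors also differed. Fcgr1, the high-affinity receptor, rose in BMDMs alone, from 116 to 436 against 13.5 to 18.5 (difference 1.45, SE 0.08, edgeR adjusted p = 1.26e-16). Fcgr3 rose in BMDMs and fell in RAW264.7, with 231, 236 and 231 with PBS and 414, 397 and 410 with LPS in BMDMs and 2.22, 2.05 and 1.63 with PBS and 0.334, 0.456 and 0.794 with LPS in RAW264.7 (difference 2.68, SE 0.20, edgeR adjusted p = 2.39e-13). Tlr7, a sensor of single-stranded RNA, rose in BMDMs alone (difference 1.42, SE 0.06, edgeR adjusted p = 4.06e-19). Of 9 alternative activation markers tested, 2 rose and 3 fell in BMDMs (22.2% and 33.3%, near the background) and 3 rose and 2 fell in RAW264.7 (33.3% and 22.2%). Mrc1, the mannose receptor, and Il4ra, the IL-4 receptor, were each nearly absent from RAW264.7, at most 0.127 and 0.305. Il4ra rose in BMDMs from 18.5 to 93.6 (difference 2.13, SE 0.22, edgeR adjusted p = 4.89e-10).

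Resting levels differed between the classes. Over all tested genes, 51.2% had the higher resting level in BMDMs and 11.5% at least a 10-fold higher one. Among genes that rose in RAW264.7 alone the shares were 73.9% and 23.7%, among those lower in BMDMs and higher in RAW264.7 70.1% and 26.6%, and among genes that moved in the same direction and further in RAW264.7 84.1% and 43.5%. For genes higher in BMDMs alone they were 47.7% and 2.19%. The resting level is part of the change that chose these genes, so the shares describe the classes and test nothing. Both cell types reached at least 1 deposited FPKM for 1025 of the 1186 genes higher and 1032 of the 1396 lower in BMDMs alone, for 197 of 295 and 281 of 354 of RAW264.7 alone, and for 124 of 190 and 91 of 184 of the opposite classes. Over all tested genes they did so for 9895 of 14819 (66.8%).

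The same difference was measured in the other 12 libraries of the series, which are labelled Olfml3 knockout and share no library with those above. The RAW264.7 libraries of both sets go against their titles by Olfml3 counts, as given above. The study's knockout RAW264.7 cells were isolated as single-cell clones, and which set of libraries holds them is in doubt. The comparison is therefore given for libraries labelled knockout. Among 14903 genes tested there, the difference was called positive for 2793 (18.7%) and negative for 2514 (16.9%). Of the 3605 genes, 3572 were tested, and 2623 (73.4%) were called in the same direction, 5 (0.140%) in the other, and 1995 (55.9%) fell in the same class. The share called in the same direction was 75.8% and 68.6% for genes higher and lower in BMDMs alone, 66.2% and 76.3% for RAW264.7 alone, 88.6% for genes higher in BMDMs and lower in RAW264.7 and 85.9% for the reverse. The share that fell in the same class was lower, at 58.3% and 54.3% for BMDMs alone and 50.7% and 62.0% for RAW264.7 alone. For genes higher in BMDMs and lower in RAW264.7 it was 60.5%, and for the reverse 43.5% (80 of 184).

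Of the leading genes, Myc differed by -9.75 there, C5ar1 by -8.08, Trp53i11 by 7.61 and Cst7 by 6.79, and all 4 were again opposite. Mmp9 differed by -4.42, with a BMDM change of 0.43, so that it was a gene of RAW264.7 alone. Phlda1 and Siglec1 were likewise genes of RAW264.7 alone there, with BMDM changes of -0.41 and -0.46. Gadd45a, Dusp14, Zbtb8a, Rubcnl and Fzd7 kept their class. The difference of Osm was -0.61 in place of -3.7, that of Dusp6 -0.99 in place of -3.98, and that of Ccr1 -1.41 in place of -5.23, the last with an edgeR adjusted p of 0.0804. Examples of a turned sign were Csf2 (3.9 in place of -6.39), Ccl7 (0.48 in place of -4.0), Rsad2 (0.99 in place of -1.61) and Il1rn (-0.58 in place of 1.13). The differences of these genes were not called there. Wdhd1 fell in both cell types there, by -1.55 in BMDMs and -2.07 in RAW264.7. In the lists, the interferon-stimulated genes had 15 negative and 10 positive differences there (median -0.26), the glycolysis genes 1 and 16, the cholesterol genes 2 and 14, the cell cycle genes 15 and 5 and the NF-kappaB list 5 and 10. Whether the sets of libraries differ was not tested.

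**Figure D5:**
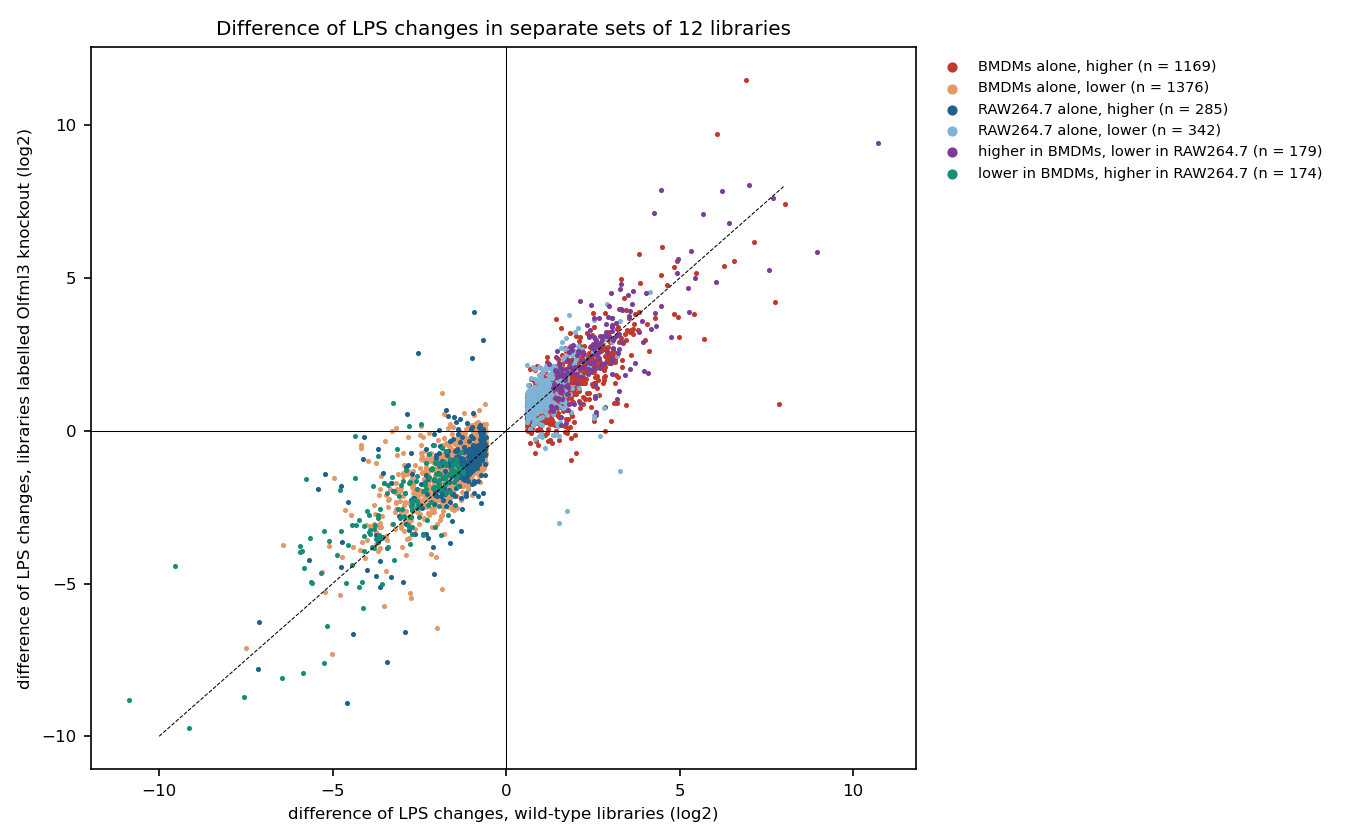
Difference of the LPS changes (log2, BMDM minus RAW264.7) in the 12 libraries labelled Olfml3 knockout (vertical axis) against that in the 12 libraries taken as wild type (horizontal axis), for genes of the 6 classes with counts in every wild-type group. Colours mark the class, the dashed line marks equal differences, and 73.4% of the class genes tested in both sets were called in the same direction.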

How the data were processed

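Poly(A) RNA from BMDMs and RAW264.7 cells was sequenced by the authors as paired reads, and 1 table per cell type was deposited. The authors' tables hold raw counts per gene and FPKM scaled to library totals. No aligner, counter or strand setting was found: each is not given in the sources used here. Therefore overlapping and antisense genes cannot be told apart. The labels list mm10, but gene coordinates in the deposited tables differ from that build, and none are printed.

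The counts of 12 wild-type libraries, 3 per group, were tested in 1 model with 4 group means by edgeR 4.0.16 (R 4.3.3) after filterByExpr and TMM scaling. Calls needed a fold of 1.5 or more and a p below 0.05 after Benjamini-Hochberg adjustment. The difference was the BMDM LPS change minus that of RAW264.7, and SE is the size of the log2 change divided by the square root of F. The study's methods name limma. Since counts were deposited, limma 3.58.1 on FPKM served as an alternative, as did DESeq2 1.42.0, other scalings, filters and thresholds, all 24 libraries, a replicate block and the removal of each library. The script was tested on simulated data.

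Named genes were the 6 with the largest difference per class at 1 deposited FPKM or more in both cell types and with groups that did not overlap, the 5 largest changes per direction among genes under 0.1 deposited FPKM in the other cell type, and members of the lists. Mertk, the CD3 genes, Ly6g and the MHC class II genes were named from marker lists or after their values were seen. Some genes that the rule names are not reported here. Members and lists were chosen with earlier results of these data known. BMDM libraries were deeper, but the counting error of a value follows the counts of that gene and not the library total alone.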

Additional observations from a re-analysis of the deposited data

Results flagged for a closer look

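The LPS change differed between the cell types by the test of the difference itself for 2669 genes in the positive and 3058 in the negative direction. The genes described above that passed this test are given here with their difference, BMDM minus RAW264.7 on the log2 scale, from edgeR's model of 12 libraries.

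Among genes that rose in BMDMs alone, the log2 difference was 6.28 for Car2, 5.4 for Il12rb1, 4.97 for Tnfsf9, 4.64 for Nt5c3, 4.47 for Pmepa1, 4.28 for Foxp4, 1.44 for Ly96, 1.26 for Ikbkb, 1.52 for Irf5, 1.81 for Rela, 2.13 for Il4ra, 1.47 for Ncf1, 1.38 for Hif1a, 1.57 for Hk3, 1.5 for Pfkp, 2.96 for Pfkfb3, 0.61 for Pgk1, 0.84 for Slc16a3, 1.62 for Hmgcs1, 1.06 for Cyp51, 1.43 for Idi1, 1.3 for Fdps, 1.55 for Fdft1, 1.34 for Insig1, 1.45 for Fcgr1 and 1.42 for Tlr7.

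For genes that fell in BMDMs alone it was -5.23 for Arhgap19, -5.12 for Bbs12, -4.8 for Kcnj2, -4.2 for Il16, -4.15 for Lpar6, -0.68 for Irak4, -3.98 for Dusp6, -1.83 for Fos, -1.08 for Hmox1, -2.81 for Vegfa, -1.49 for Top2a, -1.94 for Ccnb1, -1.47 for Cdk1, -3.81 for Cdc20, -2.36 for Aurka, -2.18 for Plk1 and -1.92 for Bub1.

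For genes that rose in RAW264.7 alone it was -7.13 for Rgs16, -5.23 for Ccr1, -4.72 for Egr1, -3.75 for Dpep2, -3.7 for Osm, -3.64 for Itgax, -0.81 for Tirap, -0.95 for Nfkbid, -4.56 for Mrc1, -1.08 for Cd36, -3.32 for C3ar1, -2.18 for Clec7a and -1.12 for Tlr9. Mrc1 was nearly absent from RAW264.7, as given above, so the size of its difference rests on low values there.

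For genes that fell in RAW264.7 alone it was 2.91 for Lrrc75a, 2.53 for Wdhd1, 2.52 for Plxnd1, 2.4 for Pwwp3a, 2.31 for Zfpm1, 2.19 for Mrps6, 3.88 for Chst1, 0.76 for Ticam2, 1.03 for Mcm6, 0.87 for Pcna and 0.94 for Trem2.

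Genes higher in BMDMs and lower in RAW264.7 had differences of 7.69 for Trp53i11, 7.58 for Dusp14, 6.41 for Cst7, 5.43 for Zbtb8a, 5.24 for Rubcnl, 4.3 for Fzd7, 3.64 for Klf4, 2.42 for Hk1, 2.67 for Abcg1 and 2.68 for Fcgr3.

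Genes lower in BMDMs and higher in RAW264.7 had differences of -9.55 for Mmp9, -9.15 for Myc, -7.56 for Phlda1, -6.45 for C5ar1, -5.93 for Siglec1, -5.83 for Gadd45a, -2.06 for Dusp4, -5.95 for Fosl1, -4.88 for Egr2, -4.11 for Egr3, -3.96 for Abca1 and -4.44 for Ccr2.

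Genes that moved the same way and further in BMDMs had 0.96 for Tnf, 1.06 for Il15, 1.24 for Il18, 1.13 for Il1rn, 1.35 for Cxcl10, 4.36 for Cxcl11, 1.88 for Ifit2, 1.67 for Oasl1, 3.97 for Gbp6, 1.6 for Myd88, 0.71 for Tbk1, 3.56 for Tnip3, 3.77 for Socs1, 4.87 for Socs3, 3.22 for Dusp2, 1.93 for Cd40, 1.59 for Cd83, 1.69 for Cd274, 1.79 for Tap2, 2.58 for Sod2, 2.49 for Ptgs2, 1.49 for Acod1 and 1.7 for Cdkn1a.

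Genes that moved the same way and further in RAW264.7 had -8.2 for Lif, -2.25 for Il1a, -1.34 for Il1b, -3.06 for Csf1, -6.39 for Csf2, -3.78 for Ccl2, -4.0 for Ccl7, -5.51 for Cxcl2, -1.0 for Ifit1, -2.78 for Ifit3, -4.17 for Ifit3b, -2.11 for Isg15, -3.5 for Oasl2, -1.61 for Rsad2, -2.53 for Slfn5, -3.62 for Gbp2, -1.34 for Gbp3, -1.98 for Gbp7, -1.59 for Irgm2, -0.84 for Ticam1, -3.2 for Ikbke, -0.76 for Irak3, -3.23 for Cish, -4.59 for Dusp5, -1.76 for Cd80 and -0.98 for Icosl.

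Outside these classes it was 0.67 for Cs.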

How the results depend on the processing

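With each library left out in turn, 7652 to 8050 genes were called for the LPS change in BMDMs, 4722 to 4913 in RAW264.7 and 5554 to 5739 for the difference. Genes of BMDMs alone numbered 2465 to 2581, those of RAW264.7 alone 629 to 659 and opposite genes 355 to 387, and 2490 to 2653 differences recurred in the libraries labelled knockout. The replicate numbers did not pair the libraries (correlations of same-numbered libraries from -0.037 to 0.01), and with the replicate block 5653 differences, 2546 genes of BMDMs alone, 643 of RAW264.7 alone and 358 opposite genes were called.

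With library totals in edgeR 10077 genes changed in BMDMs and 7328 differences were called. On log2(FPKM + 0.1) in limma, which changes the test, the scaling and the genes tested (27718) together, 8632 differences and 4820 genes of BMDMs alone were called, with higher calls at 19.9% in BMDMs and 33.2% in RAW264.7 and positive differences at 21.3%, and 176 of 374 opposite genes kept their class. On log2(FPKM + 1) 155 genes were opposite. With at least 50 counts in 3 libraries of each cell type, 5116 genes changed in BMDMs, 3169 in RAW264.7 and 226 in opposite directions. At a fold of 2 the counts were 2925 in RAW264.7, 3699 differences and 159 opposite genes, and by adjusted p alone 8956 in RAW264.7 and 1584 opposite. Among genes of at least 1 FPKM in both cell types, a choice made after seeing the data, 5122 changed in BMDMs and 215 in opposite directions. Fewer genes are tested under both filters, and the cause of the other shifts was not tested.

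For most genes the result followed was the difference, and for genes named as hardly expressed in the other cell type it was the LPS change. Of 241 results followed, 69 lost their call in at least 1 setting, 17 of them on leaving out 1 library. At a fold of 2, 43 lost it. A result not tested in a setting does not count as lost, and under the filter of 50 counts 206 were tested. The values below are differences. The sign turned with library totals for Cxcl14 (-0.02) and Junb (-0.01), on log2(FPKM + 0.1) for Cxcl14 (-0.05), Junb (-0.01) and Slfn4 (-0.1), and on log2(FPKM + 1) for Cdc6 (0.43), Csf1 (0.04), Cxcl14 (-0.11), Gbp2 (1.86), Gbp3 (0.35), Gbp7 (0.35), Ifit1 (0.39), Ifit3b (0.14), Junb (-0.02), P2ry12 (-0.36), Rsad2 (0.83), Slc7a11 (-0.51) and Slfn4 (-1.31). A pseudocount of 1 lies above the resting level of many of these genes in RAW264.7 and lowers their fold there.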
